A study of Arabidopsis thaliana with 18 samples.

Results

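The genes described here are 43 members of the plant-wide AP2/ERF family of transcription factors, which includes the DREB proteins, out of 6740 genes in the deposited expression table of Arabidopsis thaliana seedlings. They were chosen by the wording of the gene description in that table (integrase-type DNA-binding, ethylene response factor, ethylene responsive element binding, ERF domain, DRE-binding or C-repeat), with DREB2A and DREB2C added by locus code and ERF1 and ORA59 left out. The rule itself uses no measured value, but the table lists only genes called at least once, and the rule was written with earlier results of these data known. A subfamily is stated in the reference annotation for 39 of the 43, and in all 39 it was the subfamily used here, so the label of the group held for these. Among them is ESE3, the 1 member outside the family lists used here, whose subfamily was set separately.

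The seedlings were of ecotype Col-0 and were either wild type or a line called pyl duodecuple, which carries mutations in 12 genes for PYR/PYL proteins, through which plants sense abscisic acid (ABA), a hormone of drought and osmotic stress. Plants were grown upright for 9 days and then kept for 24 h on filter paper without additive (mock control), with ABA at 100 µM, or with mannitol at 300 mM, which draws water out of cells. The 6 groups of genotype and treatment held 3 samples each, 18 in all, every sample being whole seedlings, and the duodecuple line is described as 1 line. The same control group of a genotype served for both of its treatments. The labels do not say whether the 3 samples of a group came from separate cultures.

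For each gene the authors deposited a single value per group, taken here as FPKM (fragment counts scaled to transcript length and to the number of mapped fragments), with the log2 ratio of treated over control and their call, present or absent, in each of the 4 treatment comparisons. A gene is said here to have risen or fallen only where the authors called it. Values of single samples and their depths are not known, so no value below has an error, no test could be run, and ratios between the genotypes carry no call. The table lists genes called at least once, so its shares are not shares of the genome. In whole seedlings fewer cells of a type and less RNA per cell cannot be told apart.

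AP2/ERF proteins share a DNA-binding domain first described in the flower regulator APETALA2 and in ethylene-responsive binding factors. DREB proteins bind the dehydration-responsive element (DRE) in front of drought, cold and heat genes, and ERF proteins bind mainly the GCC box of genes that answer to ethylene, jasmonate and pathogens. Some members act as repressors through a short EAR motif, and the AINTEGUMENTA-like members steer organ growth and stem cell identity. ABA itself acts through bZIP factors that bind the ABRE, whose core is ACGTG, and DREB2A is a known target of those factors.

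The 250 bases before the annotated start of 6 members are printed 5′ to 3′ on the strand of the gene, read from assembly TAIR10.1 (RefSeq). DREB2A is shown because it was called higher in all 4 comparisons, AT5G61890 because it had the largest fold among called rises with a control value above 0, ERF-1 and ERF2 because their promoters share the longest run of letters among the members, and ERF6 and ESE3 because, among members reaching 5 FPKM, their responses differed most between the genotypes under ABA (ERF6) and mannitol (ESE3). Capitals mark the ABRE core, ACGTG on either strand; CACGTG holds it on both strands and counts once per strand. None of the 6 holds the DRE (ACCGAC or GCCGAC) or the GCC box (GCCGCC) on either strand.
DREB2A, chr5:1601955-1602204, plus strand: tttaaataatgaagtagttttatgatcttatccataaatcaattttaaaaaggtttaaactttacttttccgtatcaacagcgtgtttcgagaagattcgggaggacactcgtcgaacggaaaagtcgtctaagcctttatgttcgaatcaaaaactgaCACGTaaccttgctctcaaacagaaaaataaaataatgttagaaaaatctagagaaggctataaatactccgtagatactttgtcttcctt
AT5G61890, chr5:24853942-24854191, minus strand: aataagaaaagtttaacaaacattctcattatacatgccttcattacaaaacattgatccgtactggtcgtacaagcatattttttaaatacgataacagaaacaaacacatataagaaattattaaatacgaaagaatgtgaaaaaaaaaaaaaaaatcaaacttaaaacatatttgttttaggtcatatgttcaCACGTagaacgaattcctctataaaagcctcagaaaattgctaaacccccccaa
ERF-1, chr4:9758953-9759202, plus strand: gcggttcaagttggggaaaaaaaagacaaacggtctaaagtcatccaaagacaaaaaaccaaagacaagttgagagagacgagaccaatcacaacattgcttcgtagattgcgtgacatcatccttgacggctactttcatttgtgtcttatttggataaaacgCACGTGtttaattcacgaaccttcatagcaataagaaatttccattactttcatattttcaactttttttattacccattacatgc
ERF2, chr5:19172957-19173206, minus strand: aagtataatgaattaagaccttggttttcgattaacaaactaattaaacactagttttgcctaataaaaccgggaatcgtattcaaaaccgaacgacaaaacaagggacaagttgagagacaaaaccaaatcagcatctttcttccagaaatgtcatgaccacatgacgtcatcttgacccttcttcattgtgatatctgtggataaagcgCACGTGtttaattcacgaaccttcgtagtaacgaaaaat
ERF6, chr4:9754162-9754411, minus strand: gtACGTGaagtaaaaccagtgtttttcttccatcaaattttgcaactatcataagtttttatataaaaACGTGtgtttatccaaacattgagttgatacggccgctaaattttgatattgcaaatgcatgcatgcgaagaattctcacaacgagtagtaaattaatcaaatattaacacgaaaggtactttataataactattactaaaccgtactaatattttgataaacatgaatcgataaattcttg
ESE3, chr5:8707886-8708135, minus strand: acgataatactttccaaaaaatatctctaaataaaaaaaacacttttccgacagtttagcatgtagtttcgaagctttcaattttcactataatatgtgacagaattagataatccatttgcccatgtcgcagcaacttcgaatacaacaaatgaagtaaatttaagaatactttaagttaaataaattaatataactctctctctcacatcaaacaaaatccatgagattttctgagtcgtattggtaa
The ABRE core lies 87 to 91 bases before the start of DREB2A and 50 to 54 bases before that of AT5G61890. ERF6 holds it at 244 to 248 and at 178 to 182 bases. ESE3 holds none in this window.

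ERF-1 and ERF2, on different chromosomes, share an exact run of 26 bases that includes the CACGTG.
Shared run of ERF-1 and ERF2: cgCACGTGtttaattcacgaaccttc
It spans bases 88 to 63 before the start of ERF-1 and bases 41 to 16 before the start of ERF2. Among all 903 pairs of member promoters the median of the longest shared run was 9 bases, the next longest after these 26 was 24 bases of mainly AT repeats between WRI4 and ABR1, and the third was 17 bases, almost all A.

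Most members were expressed at low levels. In their highest group 42 of the 43 reached 1 FPKM, 24 reached 5, 17 reached 10, 5 reached 50 and only DEWAX reached 100. Median levels of the members were 3.0, 1.80 and 4.27 FPKM in control, ABA-treated and mannitol-treated wild-type seedlings and 3.29, 3.72 and 4.40 FPKM in the duodecuple line, against 6.29 to 7.89 FPKM over the whole table. The lowest of the 6 member medians was thus that of ABA-treated wild-type seedlings.

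**Figure D1:**
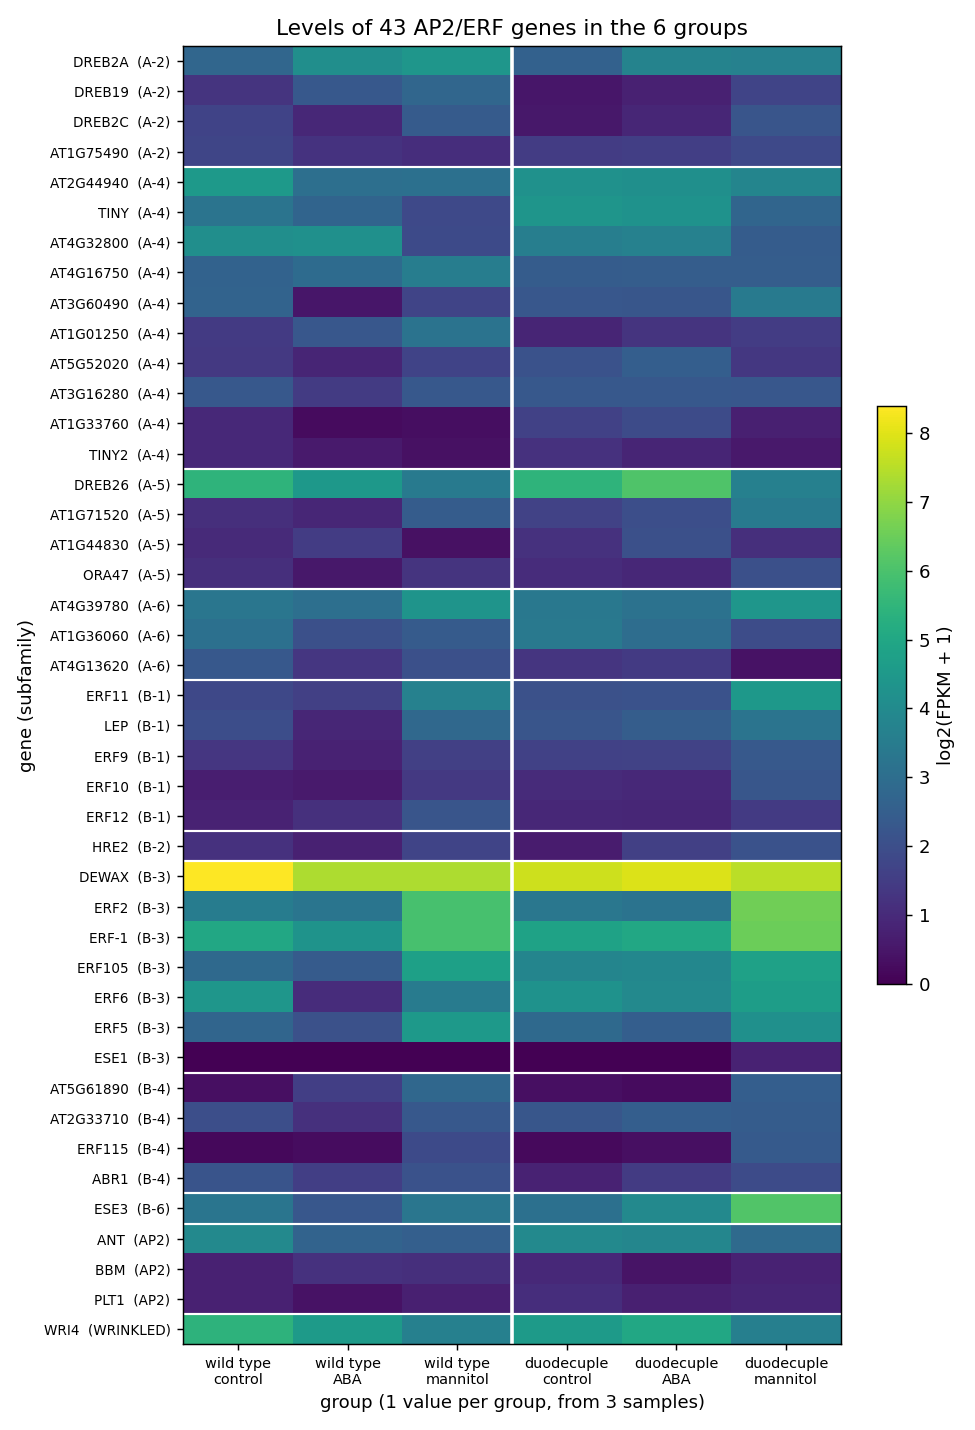
Levels of the 43 AP2/ERF genes, 1 row per gene ordered by subfamily, in the 6 groups (columns), as log2(FPKM + 1), where 1 FPKM is added for display only. DEWAX is the brightest row, and ESE1 is listed at 0 in every group but mannitol-treated duodecuple seedlings.

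Under ABA falls outnumbered rises in the wild type, and few members were called in the duodecuple line. In the wild type 20 members were called in either direction, where 44.9% of all table genes were: 17 members (39.5%) fell and 3 (6.98%) rose, where 27.3% of all table genes were called lower and 17.6% higher. In the duodecuple line 4 members were called, where 5.28% of all genes were: 1 member (2.33%) fell and 3 (6.98%) rose, where 2.79% of all genes were called lower and 2.49% higher. The median log2 ratio of the members was -0.83 in the wild type (table -0.30) and 0.06 in the duodecuple line (table -0.03).

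Mannitol gave another picture, with rises outnumbering falls in both genotypes. In the wild type 25 members were called, where 68.4% of the table was: 15 members (34.9%) rose and 10 (23.3%) fell, where 33.1% of the table was called higher and 35.3% lower. In the duodecuple line 28 members were called, where 50.5% of the table was: 19 members (44.2%) rose and 9 (20.9%) fell, where 23.3% was called higher and 27.2% lower. The member median was 0.39 in the wild type (table -0.19) and 0.98 in the duodecuple line (table -0.29). The 34.9% of members that rose in the wild type is near the table's share.

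**Figure D2:**
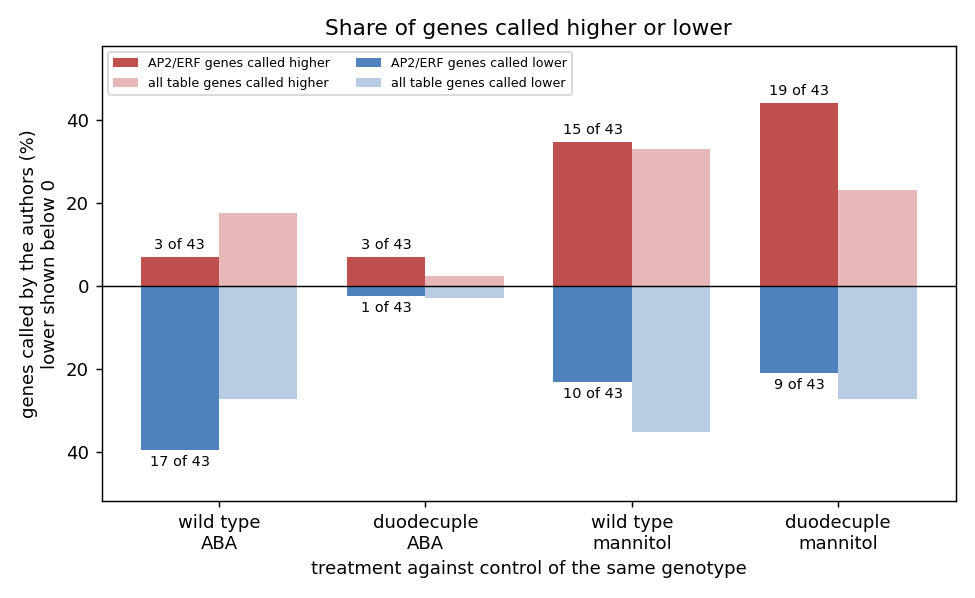
Percent of genes called higher (above 0) and lower (below 0) by the authors in each treatment comparison, for the 43 AP2/ERF genes (dark bars, with counts) and all 6740 table genes (pale bars). The members' share of falls under ABA in the wild type (39.5%) and of rises under mannitol in the duodecuple line (44.2%) lie above the table's.

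In the DREB2 subfamily (A-2, 4 members) DREB2A was the one gene that rose in all 4 comparisons. DREB2A, a main activator of drought and heat genes through the DRE, had 5.76 FPKM in control, 16.6 in ABA-treated and 20.3 in mannitol-treated wild-type seedlings, and 5.04, 12.5 and 11.7 FPKM in the duodecuple line. The treated groups of both genotypes were thus above both controls, with rises of 2.89-fold (ABA) and 3.53-fold (mannitol) in the wild type and 2.47-fold and 2.33-fold in the duodecuple line. In the duodecuple line it was 1.33-fold lower than the wild type under ABA and 1.73-fold lower under mannitol, both under the 2-fold limit used for genotype ratios.

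DREB19 had 1.40, 3.96 and 5.86 FPKM in control, ABA-treated and mannitol-treated wild-type seedlings and 0.412, 0.712 and 2.30 FPKM in the duodecuple line. All 3 duodecuple groups were below the wild-type group of the same treatment, and only the 4.19-fold rise in mannitol-treated wild-type seedlings was called; the 5.59-fold difference under mannitol in the duodecuple line was not. DREB2C, known as a heat-inducible DREB2 factor, stood at 2.25, 0.899 and 4.31 FPKM in the wild type and at 0.466, 0.875 and 3.65 FPKM in the duodecuple line. It fell 2.5-fold under ABA in the wild type and rose 7.83-fold under mannitol in the duodecuple line, where its control level was 4.82-fold lower than in the wild type. It shares an exact run of 76 transcript bases with AT2G40350, the longest such run of any member; the read length is not known, so whether reads were shared between the genes was not tested. AT1G75490, at 1.13 to 2.63 FPKM in all groups, fell 2.13-fold with mannitol in the wild type alone by the calls.

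In the TINY subfamily (A-4, 10 members) falls outnumbered rises in 3 of the 4 comparisons, as they did over the whole table in all 4. In the wild type 4 members fell and 1 rose under ABA, and 5 fell and 2 rose under mannitol. In the duodecuple line none of the 10 was called under ABA, and 5 fell and 2 rose under mannitol. The largest fall under ABA was that of AT3G60490, which went from 5.42 FPKM in control to 0.426 with ABA and 2.31 with mannitol in the wild type, against 3.86, 3.72 and 9.82 FPKM in the duodecuple line. It fell 12.7-fold with ABA and 2.35-fold with mannitol in the wild type and rose 2.54-fold under mannitol in the duodecuple line. It was the 1 member called in opposite directions in the genotypes. Of all genes listed, 21 were called lower in the wild type and higher in the duodecuple line under mannitol, and 65 the other way round.

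AT2G44940, which shares an exact run of 61 transcript bases with AT3G60490, had 22.2, 7.39 and 7.53 FPKM in the wild type and 17.9, 16.9 and 13.2 FPKM in the duodecuple line. It fell 3.0-fold with ABA and 2.95-fold with mannitol in the wild type and was called in neither comparison of the duodecuple line. Whether reads were shared between the genes depends on the read length, which is not known, and was not tested.

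TINY, named for the small plants that an activated allele gives, was one of the 2 members at least 2-fold higher in control duodecuple seedlings. Its levels were 8.29, 5.52 and 2.61 FPKM in the wild type and 19.8, 18.2 and 5.6 FPKM in the duodecuple line, each duodecuple group being above its wild-type counterpart. It fell 3.18-fold with mannitol in the wild type and 3.53-fold in the duodecuple line. The related TINY2, at 0.304 to 1.31 FPKM in all groups, fell in the same 2 comparisons, by 3.08-fold and 2.61-fold. AT4G32800 moved likewise, from 16.9 to 2.67 FPKM under mannitol in the wild type (6.32-fold) and from 11 to 4.40 FPKM in the duodecuple line (2.5-fold), with 17.4 and 12 FPKM under ABA and no call.

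AT1G01250 and AT4G16750 went the other way under mannitol in the wild type. AT1G01250 stood at 1.70, 3.87 and 8.12 FPKM in the wild type and at 0.828, 1.42 and 1.80 FPKM in the duodecuple line, and rose 2.28-fold with ABA and 4.78-fold with mannitol in the wild type and 2.17-fold under mannitol in the duodecuple line. AT4G16750 had 5.25, 6.61 and 10.7 FPKM in the wild type, a called rise of 2.04-fold under mannitol, and 4.49 to 4.51 FPKM in all 3 duodecuple groups. The remaining 3 members of the subfamily stayed under 5 FPKM. AT5G52020 fell 2.02-fold under ABA in the wild type and 2.1-fold under mannitol in the duodecuple line, AT3G16280 fell 2.25-fold under ABA in the wild type, and AT1G33760 fell 3.14-fold under mannitol in the duodecuple line. In the wild type AT1G33760 was 5.03-fold lower with ABA and 4.11-fold lower with mannitol, from 0.934 FPKM in control, without a call.

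Of the A-5 members (4), DREB26 had the highest level. It stood at 42.6, 21.1 and 9.996 FPKM in the wild type and at 42.7, 66.3 and 11.5 FPKM in the duodecuple line. The controls of the genotypes were alike in value, with 1.00-fold between them, mannitol brought it down 4.26-fold and 3.72-fold, and ABA 2.02-fold in the wild type, while the 1.55-fold higher value with ABA in the duodecuple line was not called. AT1G71520 rose under mannitol in both genotypes, from 1.2 to 4.41 FPKM (3.68-fold) and from 2.122 to 9.64 FPKM (4.55-fold). ORA47, a jasmonate-responsive regulator of jasmonate synthesis genes, fell 2.6-fold under ABA in the wild type and rose 2.87-fold under mannitol in the duodecuple line, with levels of 0.451 to 3.10 FPKM over the 6 groups. AT1G44830 rose 2.46-fold under ABA in the duodecuple line, from 1.28 to 3.14 FPKM.

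The 3 A-6 members differed among themselves. AT4G39780 rose 2.19-fold and 2.2-fold with mannitol in the wild type and the duodecuple line, from 8.76 to 19.2 and from 9.24 to 20.4 FPKM, and was not called under ABA (7.43 and 7.86 FPKM). AT1G36060 fell 2.43-fold under ABA in wild-type seedlings, from 7.55 to 3.11 FPKM, and 3.31-fold under mannitol in the duodecuple line, from 9.47 to 2.86 FPKM. AT4G13620 fell in the same 2 comparisons, from 3.91 to 1.52 FPKM (2.58-fold) and from 1.44 to 0.329 FPKM (4.38-fold).

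Among the ERF genes, the B-3 subfamily of GCC-box factors (7 members) held the most abundant member and 5 of the 19 mannitol rises of the duodecuple line. In the wild type 3 members rose and 1 fell under mannitol (33.1% and 35.3% of the table), and 2 fell under ABA (27.3% of the table). In the duodecuple line none was called under ABA (5.28% of the table) or fell under mannitol (27.2% of the table, with 23.3% called higher). ERF2, an activator of defence genes, stood at 10.5, 8.58 and 60.8 FPKM in the wild type and at 9.01, 8.16 and 94.1 FPKM in the duodecuple line. Both mannitol groups were far above the other 4, by 5.77-fold over control in the wild type and 10.4-fold in the duodecuple line. ERF-1, its relative with the shared promoter run, had 31.9, 18.7 and 59.96 FPKM in the wild type and 27.8, 31.7 and 90.7 FPKM in the duodecuple line. The mannitol groups were again the highest of each genotype, and the 3.27-fold rise in the duodecuple line was called while the 1.88-fold difference in the wild type was not.

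ERF5 and ERF6, which are known to restrain leaf growth under osmotic stress, behaved differently. ERF5 had 5.69, 3.27 and 22.1 FPKM in the wild type and 6.32, 4.64 and 17.4 FPKM in the duodecuple line, with called rises of 3.88-fold and 2.75-fold under mannitol. ERF6 had 20.2, 1.09 and 10.3 FPKM in the wild type and 18.4, 14.5 and 24.5 FPKM in the duodecuple line. ABA-treated wild-type seedlings stood alone at the low end, 18.6-fold below their control, and no other comparison of ERF6 was called. ERF105 rose 4.14-fold with mannitol in wild-type seedlings, from 6.31 to 26.1 FPKM, and 2.06-fold in the duodecuple line, from 13.2 to 27.1 FPKM. With ABA it had 4.30 and 13.7 FPKM, without a call, so the duodecuple line was above the wild type by 2.09-fold in control and 3.20-fold with ABA.

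DEWAX, a repressor of cuticular wax genes, was the most abundant member in every group. It stood at 334, 164 and 163 FPKM in the wild type and at 214, 246 and 181 FPKM in the duodecuple line. Control wild-type seedlings held the highest value, and the falls of 2.03-fold with ABA and 2.05-fold under mannitol were called in the wild type only. ESE1 is listed at 0 in 5 groups and at 0.746 FPKM in mannitol-treated duodecuple seedlings, which the authors called as a rise; no fold is given against a value of 0.

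The B-1 subfamily (5 members) holds EAR-motif repressors and the petiole regulator LEP. Under mannitol 4 members rose in the wild type and 3 in the duodecuple line, and none fell in either. ERF11, a repressor of ethylene synthesis genes, had 2.52, 2.02 and 11.8 FPKM in the wild type and 3.25, 3.28 and 21.4 FPKM in the duodecuple line, rising 4.69-fold and 6.58-fold under mannitol. ERF10 rose 2.61-fold and 3.64-fold, reaching 3.76 FPKM. ERF12 rose 4.82-fold in wild-type seedlings, from 0.752 to 3.62 FPKM, and its 1.84-fold difference in the duodecuple line was not called. LEP had 2.92, 0.850 and 6.10 FPKM in the wild type and 3.6, 4.52 and 8.26 FPKM in the duodecuple line. It was the 1 member that fell under ABA (3.44-fold) and rose under mannitol (2.09-fold) in the wild type, and it rose 2.30-fold under mannitol in the duodecuple line. ERF9 fell 2.06-fold under ABA in wild-type seedlings, from 1.5 to 0.728 FPKM.

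In the B-4 subfamily (4 members) AT5G61890 had 0.263, 1.91 and 6.01 FPKM in the wild type and 0.278, 0.190 and 4.65 FPKM in the duodecuple line. It rose 7.28-fold under ABA in the wild type and 22.9-fold and 16.8-fold under mannitol, and its value with ABA in the duodecuple line was below control and not called. ERF115, a regulator of stem cell division and regeneration in roots, went from 0.140 to 2.72 FPKM under mannitol in the wild type (19.5-fold, called) and from 0.159 to 4.19 FPKM in the duodecuple line (26.4-fold, not called), with 0.201 and 0.271 FPKM under ABA. Both mannitol groups stood above the other 4. ABR1, a repressor of ABA responses, had 3.49, 1.96 and 3.32 FPKM in the wild type and 0.733, 1.74 and 2.76 FPKM in the duodecuple line, where its 3.77-fold rise under mannitol was called from a control level 4.76-fold below that of the wild type. AT2G33710 fell 2.46-fold under ABA in wild-type seedlings, from 3.0 to 1.22 FPKM.

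HRE2, the 1 member of the B-2 (ERF-VII) subfamily and a factor of the low-oxygen response, was called in the duodecuple line alone. It had 1.28, 0.695 and 2.32 FPKM in the wild type and 0.558, 1.97 and 3.34 FPKM in the duodecuple line, with rises of 3.54-fold with ABA and 5.98-fold under mannitol.

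ESE3, an ethylene- and salt-inducible factor of subfamily B-6, had the largest difference between the genotypes under mannitol among members reaching 5 FPKM. Below that level AT4G13620 was 9.60-fold lower in the duodecuple line. ESE3 stood at 8.61, 3.82 and 8.88 FPKM in the wild type and at 7.56, 14.3 and 68.4 FPKM in the duodecuple line. Mannitol-treated duodecuple seedlings held a value far above the other 5 groups, 9.05-fold above their control, while in the wild type mannitol and control differed by 1.03-fold. Under ABA it fell 2.26-fold in the wild type, and the 1.89-fold higher value in the duodecuple line was not called. Among the 4384 table genes called under mannitol in either genotype and reaching 5 FPKM, ESE3 ranked number 43 by how much higher its ratio was in the duodecuple line.

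**Figure D3:**
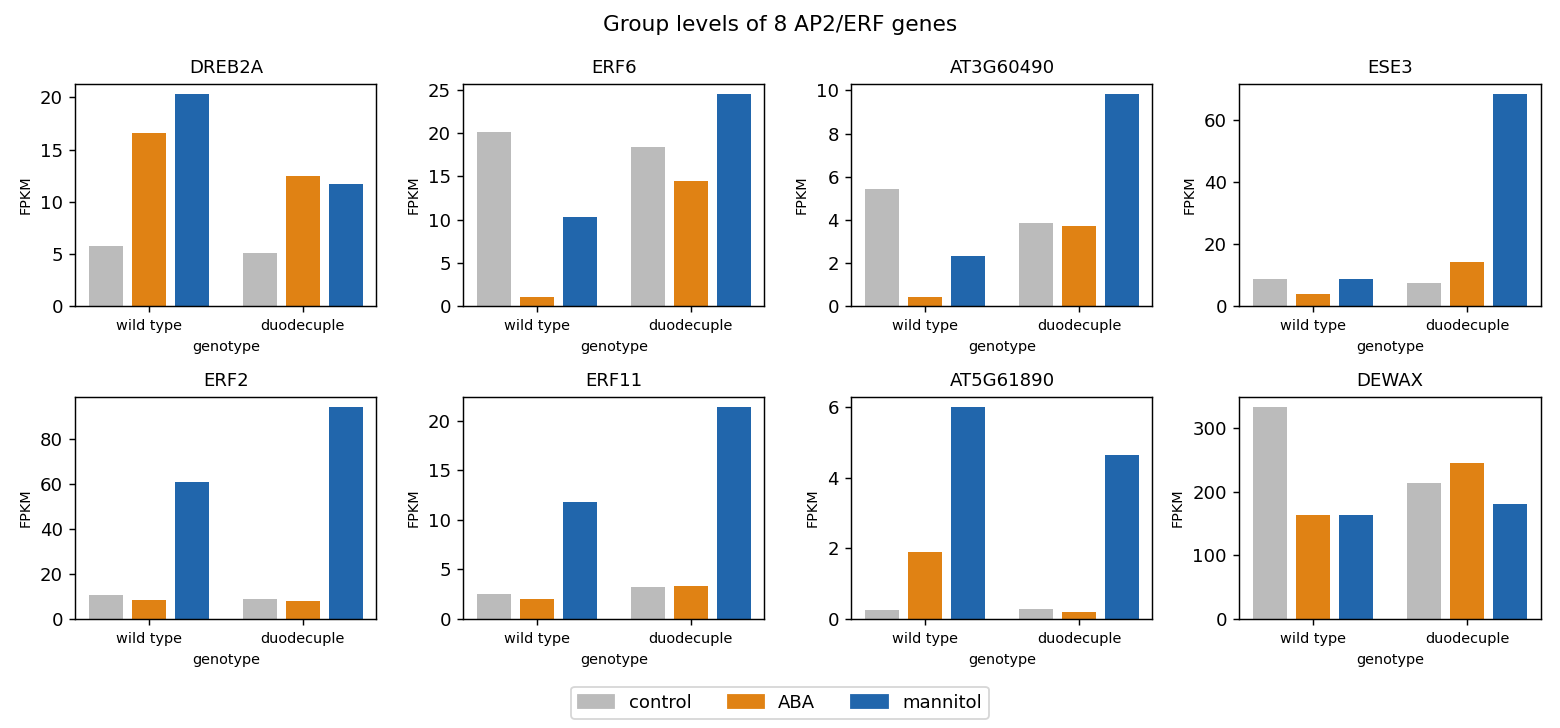
FPKM of 8 AP2/ERF genes in control, ABA-treated and mannitol-treated seedlings of the wild type and the duodecuple line, 1 bar per group and no error because single samples are not known; each panel has its own axis from 0. ERF6 and AT3G60490 are low in ABA-treated wild-type seedlings, and ESE3 is high in mannitol-treated duodecuple seedlings (68.4 FPKM).

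ANT, BBM and PLT1, the 3 AINTEGUMENTA-like members, and WRI4 had calls in the lower direction only. AIL7, an AINTEGUMENTA-like gene that the rule does not catch, rose 2.27-fold with ABA and 3.19-fold with mannitol in the wild type, from 1.34 to 3.05 and 4.28 FPKM. ANT, which promotes organ growth, stood at 14.3, 5.29 and 4.82 FPKM in the wild type and at 14.5, 13.4 and 6.46 FPKM in the duodecuple line. It fell 2.7-fold with ABA and 2.97-fold with mannitol in the wild type and 2.24-fold under mannitol in the duodecuple line, where ABA left 1.08-fold between the values. WRI4, a regulator of fatty acid supply for wax, fell 3.61-fold with mannitol in wild-type seedlings, from 41.5 to 11.5 FPKM. In the duodecuple line it had 22.7 FPKM in control and 11.4 FPKM with mannitol, 1.98-fold apart and not called, so the mannitol levels of the genotypes were alike and the controls differed by 1.83-fold. PLT1 and BBM, regulators of root stem cells and of embryo identity, stayed at or under 1.28 FPKM. PLT1 fell 2.1-fold under ABA in the wild type, and BBM fell 2.58-fold under ABA in the duodecuple line, the only fall there.

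Set side by side, few of the wild type's ABA calls were shared by the duodecuple line, among the members and over the table alike. Of the 3 members that rose in each genotype 1, DREB2A, rose in both (33.3% of each list), and none of the 17 that fell in the wild type was called in the duodecuple line. Over the table the shared rises made up 9.62% of the wild-type list and 67.9% of the much shorter duodecuple list, and the shared falls 4.30% and 42.0%. For the 17 members the duodecuple log2 ratios ran from -0.79 to 0.92 with a median of 0.02, and 8 of them (47.1%) were below 0, against 76.2% of the 1839 table genes that fell in the wild type. None of the 17 reached 2-fold in either direction in the duodecuple line, where 108 of those 1839 table genes did. Across the 43 members Pearson's r of the ratios in the genotypes was 0.11 (Spearman's rho 0.09), and across 6607 table genes r was 0.46 (rho 0.44), as a description across genes, which are not independent replicates.

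More of the mannitol calls were shared. In both genotypes 11 members rose, which is 73.3% of the 15 in the wild type and 57.9% of the 19 in the duodecuple line, and 5 fell, 50% of 10 and 55.6% of 9. Over the table the shared rises made up 45.6% and 64.7% of the lists, and the shared falls 43.3% and 56.1%. All 15 members that rose in the wild type had a ratio above 0 in the duodecuple line, with a median log2 ratio of 1.46. Of these members 13 were at least 2-fold up. Of the 2230 table genes that rose in the wild type 86.4% had a ratio above 0 there, and 1198 were at least 2-fold apart in either direction. Of the 10 members that fell in the wild type, 8 (80%) had a ratio below 0 in the duodecuple line, against 94.2% of 2379 table genes. Pearson's r across 42 members with finite ratios was 0.78 (rho 0.74), and across 6607 table genes 0.71 (rho 0.70). Members called in the duodecuple line alone were ABR1, DREB2C, ERF-1, ESE1, ESE3, HRE2 and ORA47, all higher, and AT1G33760, AT5G52020, AT4G13620 and AT1G36060, all lower.

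**Figure D4:**
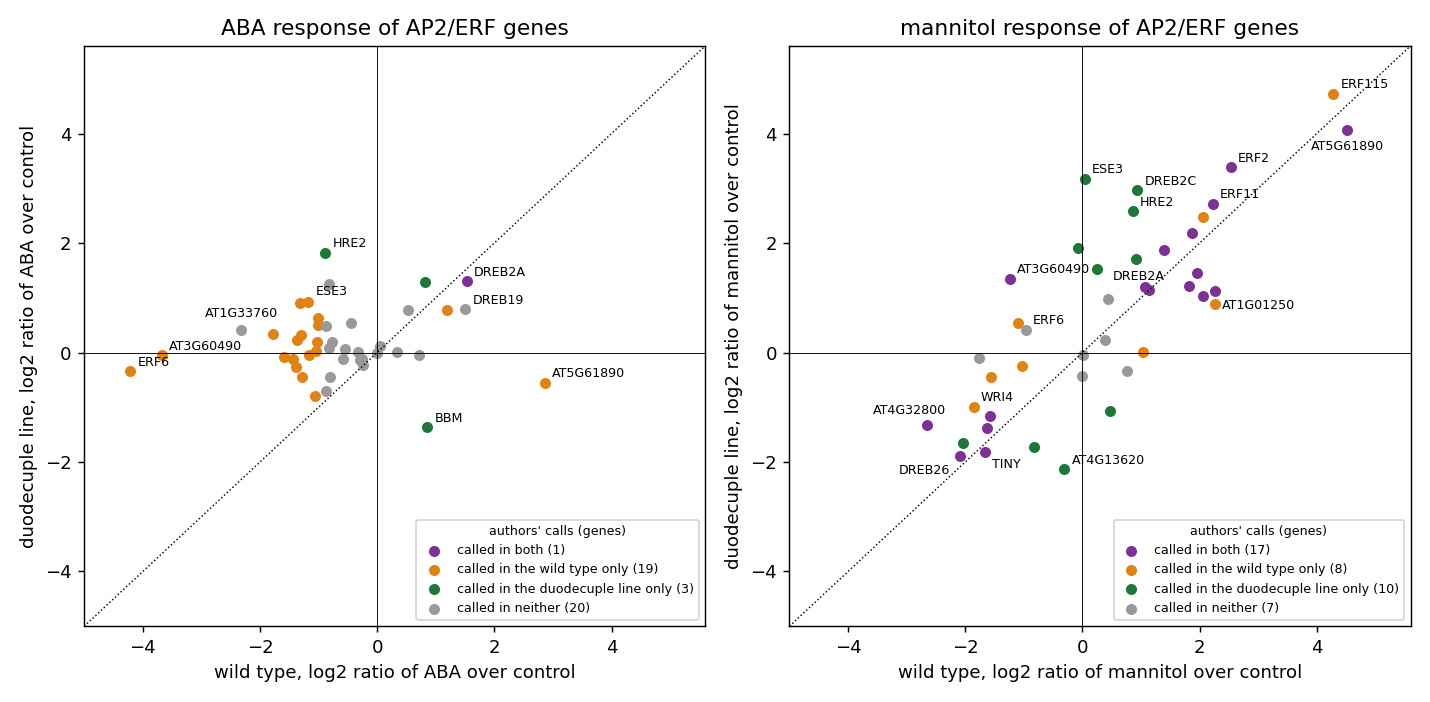
Log2 ratio of treated over control in the wild type (x axis) against that in the duodecuple line (y axis) for ABA (left, 43 genes) and mannitol (right, 42 genes; ESE1 has no finite ratio and is not drawn), each point 1 gene coloured by the authors' calls, with the dotted line marking equal ratios. Under ABA the genes low in the wild type lie around 0 on the y axis, and under mannitol most genes lie near the dotted line, with ESE3 well above it.

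Levels were next compared between the genotypes, counting genes at least 2-fold apart where the higher group had 5 FPKM or more; these ratios carry no call and no error. In control seedlings 2 of 18 members, TINY and ERF105, were higher in the duodecuple line and none was lower, where 5.42% of table genes were higher and 4.07% lower. With a minimum of 1 FPKM instead, 4 members were higher and 6 lower, and the table's shares at that minimum were not counted. With ABA 8 of 16 were higher and none lower (22.5% and 21.4% of the table), led by ERF6 (13.3-fold), ESE3 (3.75-fold), TINY (3.30-fold), ERF105 (3.20-fold) and DREB26 (3.14-fold). With mannitol 5 of 22 were higher and 3 lower (17.2% and 21.6% of the table). The higher ones were led by ESE3 (7.71-fold), AT3G60490 (4.26-fold) and ERF6 (2.38-fold), and the lower ones were AT1G01250 (4.53-fold), DREB19 (2.55-fold) and AT4G16750 (2.38-fold). The median log2 ratio of duodecuple over wild type was 0.02 in control, 0.76 with ABA and 0.42 with mannitol, against -0.0026, 0.24 and 0.07 over the table.

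The difference between the responses was counted over members called in either genotype and reaching 5 FPKM. Under ABA 7 of 9 had a ratio at least 2-fold higher in the duodecuple line and none had one at least 2-fold lower, where the shares were 41.9% and 33.2% of 2164 table genes. ERF6 (14.6-fold), AT3G60490 (12.3-fold) and ESE3 (4.27-fold) differed most. Under mannitol 4 of 23 had a higher and 3 a lower ratio, where the shares were 18.2% and 19.2% of 4384 table genes, and ESE3 (8.78-fold) and AT3G60490 (5.99-fold) differed most. None of these differences could be tested.

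Another 13 genes of the family are in the table under descriptions that the rule does not catch. Under ABA in the wild type 3 rose and 2 fell, and under mannitol 7 rose and 3 fell. In the duodecuple line none was called under ABA, and 6 rose and 1 fell under mannitol. In the same order the table's shares were 17.6% and 27.3%, 33.1% and 35.3%, 5.28% in either direction, and 23.3% and 27.2%. The B-4 gene RAP2.6, an ABA- and stress-responsive factor, had 7.11, 46.9 and 38.2 FPKM in the wild type and 7.88, 15.6 and 16.3 FPKM in the duodecuple line, with rises of 6.60-fold and 5.38-fold in the wild type and 2.07-fold under mannitol in the duodecuple line. RAP2.6L rose 3.74-fold and 7.31-fold in the wild type and 4.35-fold under mannitol in the duodecuple line. RAP2.12, an oxygen-sensing factor of subfamily B-2, rose 3.19-fold with mannitol in wild-type seedlings, from 90.8 to 289.96 FPKM, and its 1.43-fold difference in the duodecuple line, from 85.8 to 123 FPKM, was not called. EBP of the same subfamily went the other way, falling 2.29-fold with mannitol in the wild type, from 199 to 86.9 FPKM. In the duodecuple line EBP had 248, 388 and 192 FPKM without a call. ERF13 of subfamily B-3 rose 3.64-fold with mannitol in the wild type and 12.9-fold in the duodecuple line, where it reached 17.5 FPKM. Among those that fell, CRF2, a cytokinin response factor, had 20.5, 6.94 and 5.64 FPKM in the wild type, and 8.52, 8.25 and 4.03 FPKM in the duodecuple line, with called falls of 2.96-fold (ABA), 3.64-fold (mannitol) and 2.116-fold (duodecuple mannitol).

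Genes known to act downstream of or beside the family were followed through lists. Beside the counts of all these lists stand the shares of the whole table, which holds only genes called at least once. In the wild type 17.6% were called higher and 27.3% lower with ABA, and 33.1% and 35.3% with mannitol. In the duodecuple line these shares were 2.49% and 2.79% with ABA, and 23.3% and 27.2% with mannitol. Of 10 targets of CBF and DREB factors 9 were in the table; in the wild type 9 rose with ABA and 8 with mannitol, and 2 rose under each treatment in the duodecuple line, with none lower. RD29A, whose promoter carries the DRE, had 9.06, 168 and 194 FPKM in the wild type and 8.23, 16.4 and 15.4 FPKM in the duodecuple line, where neither treatment was called. COR15A, a chloroplast-protecting cold protein, was called in all 4 comparisons, with 14.7, 1192 and 275 FPKM in the wild type and 2.58, 60.4 and 71.2 FPKM in the duodecuple line. DREB2A itself thus rose in both genotypes while RD29A was called in the wild type only. In the duodecuple line RD29A was 1.99-fold (ABA) and 1.87-fold (mannitol) above control without a call. COR15A rose 23.4-fold and 27.5-fold there.

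Of 8 genes of the low-oxygen response 7 were in the table; in the wild type 5 rose with ABA and 7 with mannitol, and 4 rose under mannitol in the duodecuple line. ADH1, alcohol dehydrogenase, had 9.22, 162 and 144 FPKM in the wild type and 13.9, 24.3 and 57.3 FPKM in the duodecuple line. Of 12 ethylene synthesis genes 9 were in the table; 2 rose and 2 fell under ABA and 4 rose and 1 fell under mannitol in the wild type, and 3 rose and 2 fell under mannitol in the duodecuple line. ACO4, an ACC oxidase, rose 2.66-fold under mannitol in the duodecuple line, from 271 to 720 FPKM, and differed by 1.03-fold in the wild type. ACS2, an ACC synthase, rose 7.27-fold and 4.77-fold under mannitol. ACS11, of the same enzyme family, fell 14.7-fold with mannitol in the wild type and 5.57-fold in the duodecuple line. Under ABA in the wild type ACS2 and ACS7 rose 3.43-fold and 7.17-fold, and ACO1 and AT1G12010 fell 2.34-fold and 3.45-fold.

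Of 6 cuticle genes 3 were in the table; in the wild type 1 rose with ABA and 1 fell with mannitol, and in the duodecuple line none was called with ABA and 2 fell with mannitol. CER1, a wax synthesis enzyme and known target of DEWAX, had 13.5, 55.5 and 13.0 FPKM in the wild type and 9.89, 11.2 and 2.80 FPKM in the duodecuple line, rising 4.11-fold under ABA in the wild type and falling 3.53-fold under mannitol in the duodecuple line. CYP86A8, a fatty acid hydroxylase, fell 2.73-fold with mannitol in the wild type, and CYP86A4, of the same enzyme family, fell 2.26-fold with mannitol in the duodecuple line. HSFA3, the 1 gene in the table of 3 partners and targets of DREB2A and itself a heat shock factor that DREB2A induces, fell 6.37-fold with ABA and 5.18-fold with mannitol in wild-type seedlings, from 4.90 FPKM, and 2.34-fold under mannitol in the duodecuple line, so it went opposite to DREB2A in these 3 comparisons. The 12 genes of an ethylene signalling list were not analysed here.

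The members also shared features of gene structure. In TAIR10.1 30 of the 43 (69.8%) had a single exon in every annotated transcript, against 20.7% of 6560 protein-coding table genes and 18.9% of 27444 protein-coding genes. Members lie on all 5 nuclear chromosomes, and 3 pairs lie within 20000 bases of each other. ERF12 and ERF11 are 2668 bases apart on chromosome 1 and ERF6 and ERF-1 5041 bases apart on chromosome 4, both with no protein-coding gene between them, and ERF2 and ERF5 are 6924 bases apart on chromosome 5 with 1 gene between them. Neighbours were not always called together. ERF6 fell under ABA in the wild type while ERF-1, 1.70-fold lower, was not called. ERF-1 rose under mannitol in the duodecuple line while ERF6, 1.34-fold higher, was not called. ERF2 and ERF5 rose under mannitol in both genotypes.

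Motif letters were counted in windows from 250 bases before to 50 bases after the start of each gene, on both strands. The ABRE core was found in 18 of the 43 members (41.9%), against 33.8% of table genes and 26.7% of 27443 protein-coding genes. Among the 19 members that rose under mannitol in the duodecuple line 11 (57.9%) held it, and 1 of the 9 that fell (11.1%), where the table shares were 38.2% and 30.4%. In the wild type the corresponding counts were 8 of 15 (53.3%, against 40.4% of the table's) and 4 of 10 (40%, against 28.7% of the table's). Among the 17 that fell under ABA in the wild type 5 (29.4%) held it, against 29.4% of the table genes that fell. The GCC box was found in 4 members (9.30%, against 1.88% of the table) and the DRE in 5 (11.6%, against 9.12% of the table). These are matches of letters and not tested.

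Because seedlings were sampled whole, markers of leaf and root tissue were read beside these results, and 8 of 11 were in the table. The summed level of 3 leaf genes was 21361, 14524 and 4178 FPKM in control, ABA-treated and mannitol-treated wild-type seedlings and 21198, 19004 and 12493 FPKM in the duodecuple line. The 3 did not always move together. With ABA in the duodecuple line LHCB1.3 went from 6120 to 3303 FPKM and RBCS2B from 4208 to 3734, while RBCS1A went from 10869 to 11967, all without a call. In control seedlings RBCS2B was higher in the duodecuple line (4208 against 2420 FPKM) and the others were lower. CASP1 and PHO1, of the root endodermis and stele, summed to 54.3, 20.3 and 27.0 FPKM in the wild type and to 62.0, 62.5 and 22.8 FPKM in the duodecuple line, and the root hair genes EXPA7 and COBL9 to 7.68, 6.69 and 22.5 FPKM and to 12, 11.2 and 7.62 FPKM. MYB60 of guard cells had 13.2, 5.83 and 6.62 FPKM and 15.1, 13.0 and 12.2 FPKM. No listed marker was at 0. With ABA the summed root endodermis and stele level was below control in the wild type and not in the duodecuple line. With mannitol it was below control in both genotypes. The part of tissue makeup in the results was not tested.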

How the data were processed

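RNA sequencing libraries of 18 seedling samples in 6 groups were grouped by the titles and characteristics in the labels. The submitters' processing notes name TopHat, Cufflinks and Cuffdiff and the TAIR10 genome, with versions and settings not given in the sources used here. The deposited table holds 1 value per group, taken here as FPKM because the authors' tools write that unit, although the file header does not name it. The authors deposited log2 ratios that differ from the ratios of their group values by at most 4.68e-05, which leaves no room for a pseudocount, and calls per comparison, whose rule is not stated. All called genes but 1 in wild-type mannitol differed at least 2-fold. Totals per library are unknown, so precision cannot be given, and the planned limma fit could not be made without values per library; calls were counted as deposited.

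The members and gene lists were chosen with earlier results of these data known. The 13 family lists and 6 lists of related genes come from general knowledge of the family. Named genes were, per comparison, the 10 largest called rises and falls at 5 FPKM or more, the 5 largest genotype and response differences per direction, and up to 4 genes per list; other members, and some of the 13 family genes outside the rule, were named after their values were seen. In medians an infinite ratio counts as the most extreme value. Gene names, promoters, exons and coordinates come from RefSeq's TAIR10.1 by locus code, which matched 6726 of 6740 table genes and all 43 members. Letters of motifs were searched on both strands. Counting and motif steps were tested on simulated data. Alternatives were minimum levels of 1 and 5 FPKM, a 4-fold limit, 1 or 5 FPKM added, and ignoring the call. Python 3.11.15, numpy 2.4.6, pandas 2.3.3 and matplotlib 3.10.9 were used.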

Additional observations from a re-analysis of the deposited data

Results flagged for a closer look

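AT3G60490, a TINY-subfamily (A-4) DREB gene, was called in opposite directions under mannitol in the genotypes. It went from 5.42 to 2.31 FPKM in the wild type and from 3.86 to 9.82 FPKM in the duodecuple line, a difference of 2.58 between the log2 ratios. The difference was not tested, since only 1 value per group is known. Its transcript shares an exact run of 61 bases with AT2G44940, and whether reads were shared between the genes was not tested.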

How the results depend on the processing

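Depth and spread per library are unknown, so these alternatives show how the counts depend on low values and limits, not their error. The counts under these limits were made for the members alone. They cannot be set against the table's shares given above, which hold for the main limits only. No paired analysis was possible because the table holds 1 value per group, and leaving out each replicate in turn was not run for the same reason. Requiring 5 FPKM in the higher group left 1 rise and 8 falls under ABA in the wild type (median of mannitol there 0.91), 1 and 0 under ABA in the duodecuple line, where the median turned to -0.011, and 11 and 5 under mannitol there; ignoring the call at that level gave 1 and 8, 1 and 0, and 11 and 5. A 4-fold limit left 1 rise and 2 falls (wild type ABA), 8 and 2 (wild type mannitol), 0 and 0 (duodecuple ABA) and 8 and 1 (duodecuple mannitol). Adding 1 FPKM left 2 rises and 7 falls in wild-type ABA, 1 rise and 0 falls in duodecuple ABA and 5 falls in duodecuple mannitol, with medians of -0.53 in wild-type ABA and 0.61 in duodecuple mannitol. Adding 5 FPKM left 1 and 3, 6 and 5, 0 and 0, and 5 and 2 in the same order of comparisons, with medians of -0.19, 0.11 and 0.22 in wild-type ABA, wild-type mannitol and duodecuple mannitol.

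Between the genotypes a minimum of 1 FPKM gave 4 members higher and 6 lower in the duodecuple line in control, 17 and 4 with ABA and 10 and 5 with mannitol; a 4-fold limit left 0, 1 and 2 higher and, with mannitol, 1 lower; adding 5 FPKM left 0, 5 and 2 higher and, with mannitol, 0 lower. For response differences 1 FPKM gave 16 higher and 2 lower under ABA and 9 and 6 under mannitol, a 4-fold limit left 3 under ABA and 2 and 0 under mannitol, and adding 5 FPKM left 2 and 0 under mannitol. Of 69 values of single named genes 48 stayed at least 2-fold apart with 1 FPKM added and 22 with 5 FPKM added. Without the 50 bases after the start, members with the ABRE core among the 17 that fell under ABA in the wild type went from 5 to 3. That was 17.6%, against 26.1% of the table genes that fell. Other counts and medians reported above moved by less than 1.5 times or 0.25 on the log2 scale under these alternatives.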
